A study of Mus musculus with 8 samples.

Results

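RNA from blood-forming cells labelled deficient in Ifnar1 was compared with RNA from cells labelled sufficient for it. All 8 libraries of the series entered by their labels, 4 on each side: IFNAR and DKO (both lacking IFNAR1) against WT and N5. They form 4 disjoint pairs, IFNAR against WT and DKO against N5, once in haematopoietic stem cells (HSC) and once in multipotent progenitors (MPP). Donors labelled WT were Nfat5 +/+ with Vav-Cre, donors labelled N5 were Nfat5 fl/fl with Vav-Cre, donors labelled IFNAR were IFNAR1-deficient with no Cre named, and donors labelled DKO were Nfat5 fl/fl with Vav-Cre and also IFNAR1-deficient. Vav-Cre acts in blood cells. Every donor marrow carried CD45.2 and went into irradiated wild-type CD45.1 recipients, whose own tissues therefore kept their interferon receptor, and CD45.2+ cells were sorted 13 weeks later. HSC were CD48- CD150+ and MPP CD48+ CD150- cells of the LSK gate (lineage-negative, Sca-1+, Kit+ marrow cells). Each library is 1 pool of cells from 5 mice, with the same number of cells per mouse, so no combination of cell type and genotype was replicated. The labels do not say whether the HSC and MPP pools of a genotype came from the same mice. If they did, the HSC and MPP pairs are not independent of each other. The p-values below measure only the spread between these 8 pools after cell type and Nfat5 label are accounted for. In such bulk RNA, fewer cells of a type and less RNA per cell cannot be told apart.

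Type I interferons bind a receptor built from IFNAR1 and IFNAR2, which activates the kinases JAK1 and TYK2. These phosphorylate STAT proteins, which join IRF9 to form ISGF3, a complex that binds the interferon-stimulated response element in the promoters of antiviral, antigen presentation and GTPase genes. IRF9 is itself the product of an interferon-induced gene, so low tonic signalling also sets how much of the machinery a cell holds. In marrow, type I interferon is known to push dormant stem cells into cycle, and Sca-1, encoded by Ly6a, is an interferon-induced surface protein.

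The letters of that response element were looked for in RefSeq promoters (GRCm38.p6, 250 bases before to 50 after each start). The search was for GAAA, any 2 bases, GAAA, on either strand, so that the reverse complement reads TTTC, any 2 bases, TTTC. Candidates were the lower genes named below by their pair ratios and the members of the interferon lists with a mean of 50 CPM or more that were lower in all 4 pairs. The 6 stretches are from the candidates that ranked first by smallest pair ratio among those whose promoter holds the letters, so less abundant genes were not considered, and capitals mark the match. Ifi27, Ly6a and Iigp1 were among the candidates with no promoter entry, so their promoters were not searched.
Gprasp1, chrX:135742461-135742530, + strand: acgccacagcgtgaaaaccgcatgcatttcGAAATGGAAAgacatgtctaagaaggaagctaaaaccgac
Lgals9, chr11:78984940-78985009, - strand: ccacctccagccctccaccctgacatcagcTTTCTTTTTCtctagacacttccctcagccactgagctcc
H2-T22, chr17:36042894-36042963, - strand: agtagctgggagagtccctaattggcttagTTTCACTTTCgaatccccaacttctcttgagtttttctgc
Mndal, chr1:173880188-173880253, - strand: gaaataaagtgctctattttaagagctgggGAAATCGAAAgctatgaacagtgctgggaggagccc
Gbp7, chr3:142530253-142530322, + strand: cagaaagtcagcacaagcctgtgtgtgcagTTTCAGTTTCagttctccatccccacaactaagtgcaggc
Igtp, chr11:58199492-58199555, + strand: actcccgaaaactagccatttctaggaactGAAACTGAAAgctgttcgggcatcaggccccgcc
The match opens 34 bases before the start in Igtp, 36 in Mndal, 53 in Gbp7, 55 in Lgals9, 191 in H2-T22 and 201 in Gprasp1. A match is a description of letters and not a bound site.

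The libraries held 28871700 to 47206000 counts, so that 50 CPM (the usual count-per-library-size unit, here scaled by TMM factors) rested on at least 1443 counts. The gates were visible in the RNA: Slamf1, which encodes CD150, stood at 52.2 to 90.0 CPM in the HSC libraries and at most 0.0275 CPM in the MPP libraries. Cd48 stood at 202 to 284 CPM in the MPP libraries and at most 6.36 CPM in the HSC libraries. Kit stood at 773 to 1157 CPM throughout.

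Ifnar1 itself did not follow the genotype labels. Among HSC it stood at 122 CPM under the WT label, 126 under N5, 113 under IFNAR and 35.1 under DKO. Among MPP the same labels held 37.2, 87.9, 43.8 and 125 CPM. The 2 sides overlapped fully, and counting error was small, with a 95% Poisson interval of 110 to 117 CPM for the HSC library labelled IFNAR. The edgeR quasi-likelihood fit gave a log2 fold change of -0.11 (SE 0.58, adjusted p = 1), deficient over sufficient label. Counts were summed over the whole gene and the altered part of Ifnar1 is not given in the sources used here, so this level does not check whether a functional receptor was made. Nfat5 stood at 33.2, 22.7, 3.12 and 35.5 CPM in HSC and at 5.59, 7.69, 0.193 and 11.5 CPM in MPP in that order, and likewise did not follow the Nfat5 labels. The directions below therefore rest on the labels, not on a transcript that checks them.

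A component downstream of the receptor did differ between the labels, as did other genes described below. Irf9, the DNA-binding subunit of ISGF3, stood at 126 and 237 CPM among HSC under the WT and N5 labels and at 46.3 and 31.5 CPM under IFNAR and DKO. In MPP the values were 85.2 and 154 against 50.02 and 44.7 CPM. All 4 libraries labelled deficient lay below all 4 labelled sufficient, and the log2 fold change was -1.72 (SE 0.37). Of the 4669 genes with a mean of 50 CPM or more, 58 (1.24%) were apart in that direction.

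Ifi27, an interferon-induced protein of mitochondria and the nuclear envelope, showed the widest gap of the marker genes. It stood at 111 and 196 CPM among HSC under the WT and N5 labels and at 54.3 and 31.1 CPM under IFNAR and DKO. The MPP values were 164 and 134 against 27.0 and 26.6 CPM. No library labelled deficient reached the lowest one labelled sufficient, and the log2 fold change was -2.17 (SE 0.33). Ly6a stood at 304 and 228 against 137 and 120 CPM in HSC, and at 93.1 and 150 against 45.2 and 54.5 CPM in MPP. Its log2 fold change was -1.16 (SE 0.22), and the sides overlapped across cell types but not within them. Since Sca-1 is part of the LSK gate, the Ly6a values come from cells that had passed a gate on its protein.

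**Figure D1:**
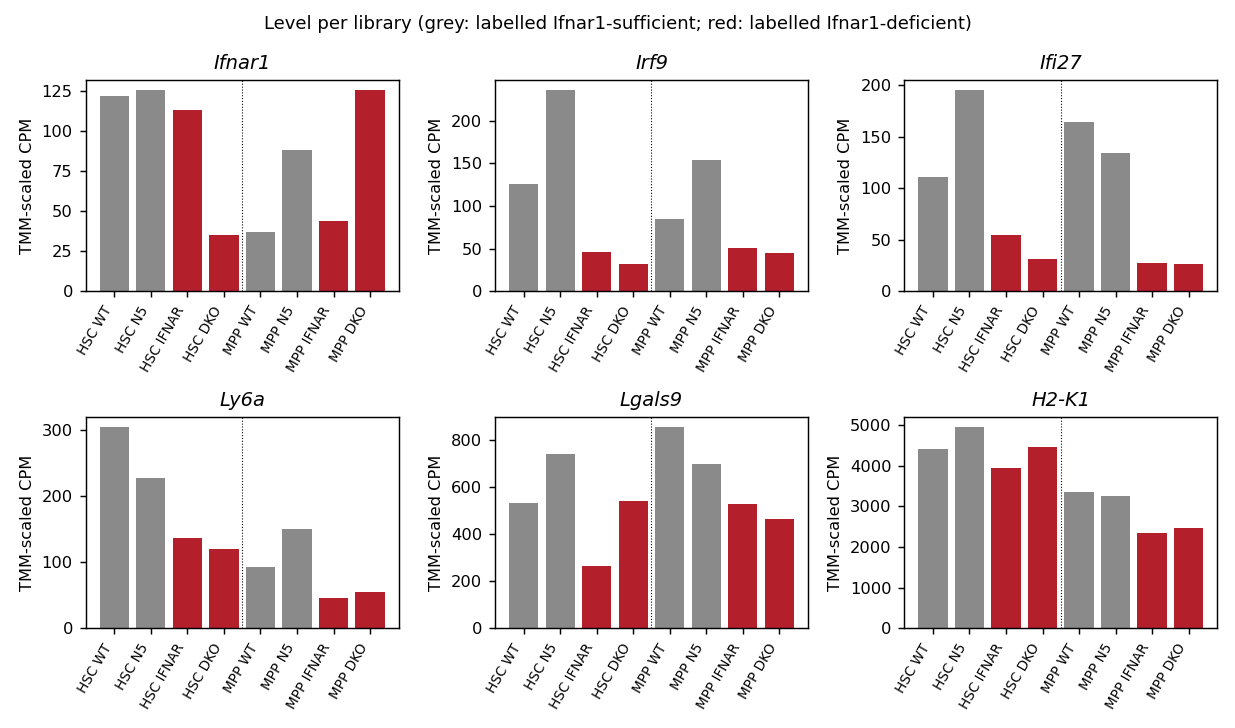
TMM-scaled CPM of 6 genes in each library, HSC left and MPP right of the dotted line, with grey bars for libraries labelled Ifnar1-sufficient and red bars for those labelled Ifnar1-deficient. Irf9, Ifi27 and Ly6a are lower under the deficient labels within each cell type, Lgals9 and H2-K1 differ less (log2 fold changes -0.67 and -0.30), and Ifnar1 does not follow the labels.

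Across all 12132 genes tested, edgeR's quasi-likelihood test with Benjamini-Hochberg adjustment at 0.05 called 0 genes (0%), with a smallest adjusted p of 0.992. At an unadjusted p under 0.05 it held 245 lower genes (2.02%) and 153 higher genes (1.26%), 398 in all where 607 would be expected at that level by chance. Ssbp2 (unadjusted p = 0.000257) and Ifi27 (0.000485) both had an edgeR adjusted p of 0.992. The common dispersion was 1.14 with 4 residual degrees of freedom. Other tools differed widely. DESeq2 called 233 genes (1.92%), 154 lower and 79 higher, among them Ifi27 (adjusted p = 2.29e-08), Ly6a (0.000374) and Irf9 (0.000444). limma-voom called only Mpo, the neutrophil granule enzyme, and edgeR's bias-adjusted method only Rtp4. No direction given below passed the edgeR test, and the counts that follow describe these 8 libraries.

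The remaining genes are read by direction in the 4 pairs, each ratio a log2 ratio of CPM with a prior count of 2. Of the 4669 genes with a mean of 50 CPM or more, 341 (7.3%) were lower and 300 (6.43%) higher in all 4 pairs. Over all genes tested the counts were 768 lower (6.33%) and 741 higher (6.11%). At 1.5-fold or more in every pair, 20 genes (0.428%) were lower and 8 (0.171%) higher. The 2 sides did not overlap at all in 58 lower genes (1.24%) and 37 higher genes (0.792%). Ratios were larger in size in HSC pairs than in MPP pairs. Between 50 and 100 CPM the median absolute log2 ratio was 0.68 and 0.59 in HSC and 0.47 and 0.46 in MPP. With 1 pool per group, noise and a difference by label cannot be told apart in this measure.

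The receptor and signalling genes did not share a direction. Of 14 tested, 7 had a log2 fold change below 0 (50.4% of all genes did), 3 were lower in all 4 pairs (Irf9 and Usp18 among them; 21.4%, beside 6.33% of all genes) and 1 was higher (Stat2). Usp18, which binds IFNAR2 and dampens the receptor, stood at 48.5 and 44.1 against 33.3 and 28.1 CPM in HSC and at 24.2 and 7.83 against 0.550 and 0.396 CPM in MPP. Stat2, a STAT protein of ISGF3, stood at 57.0 and 96.5 against 94.7 and 98.1 CPM in HSC and at 42.4 and 32.5 against 44.5 and 56.4 CPM in MPP. Its ratios ran from 0.02 to 0.79, so Stat2 lay opposite to Irf9 in every pair. Jak1 stood at 297 to 471 CPM and Tyk2 at 53.03 to 148 CPM, both with overlapping sides. Ifnar2 stood at 16.6 CPM in the HSC library labelled WT and at 41.4 to 165 CPM in the others. None of 21 interferon ligand genes passed the filter, and 20 of them had no count in any library.

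The interferon effector list, antiviral and ubiquitin-like genes induced by ISGF3, held more lower than higher members. The list has 89 genes, of which 78 were tested, 61 had a log2 fold change below 0 (78.2%, beside 50.4% of all genes), and the median was -0.52 beside -0.01 for all genes. In all 4 pairs 28 were lower (35.9%, beside 6.33% of all genes) and 2 higher. Of the 40 with a mean of 50 CPM or more, 14 were lower in all 4 pairs (35%, beside 7.3% of all such genes) and 2 were higher (5%, beside 6.43%). The median log2 ratio was -0.64 (IFNAR/WT) and -0.34 (DKO/N5) among HSC, and -0.66 and -0.58 among MPP. DESeq2 called 13 of the 78 effectors, all lower (1.92% of all genes were called). The summed level of the list was 10107 and 11427 CPM among HSC under the WT and N5 labels and 7816 and 8476 CPM under IFNAR and DKO. In MPP the sums were 7592 and 7172 against 5265 and 5482 CPM.

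Among the abundant effectors the size of the difference varied widely. Lgals9, a galectin, stood at 533 and 742 against 267 and 540 CPM in HSC and at 856 and 700 against 531 and 463 CPM in MPP (log2 fold change -0.67, SE 0.23). Lgals3bp, a secreted galectin ligand, stood at 637 and 527 against 416 and 435 CPM in HSC and at 322 and 350 against 248 and 204 CPM in MPP (log2 fold change -0.51, SE 0.12). For both genes the sides were apart within MPP. Uba7, the activating enzyme for the ubiquitin-like protein ISG15, stood at 709 and 1224 against 703 and 735 CPM in HSC, where the first pair hardly differed, and at 291 and 334 against 186 and 270 CPM in MPP. Oasl2 and Oas3, of the oligoadenylate synthetase family, owed much of their change to MPP libraries listed at 0. Oas3 stood at 152 and 56.9 against 87.8 and 56.4 CPM in HSC and at 19.9 and 35.8 against 0 and 0 CPM in MPP. Oasl2 had 0 CPM in the MPP library labelled IFNAR and 41.1 CPM in that labelled DKO, against 90.5 and 91.4 CPM.

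The remaining lower effectors of this abundance were Mov10, Adar, Bst2, Parp10, Ifitm3 and Pml, with log2 fold changes from -1.39 for Mov10 to -0.13 for Pml. Both sizes moved with single libraries: leaving out each in turn gave -2.26 (without the MPP library labelled IFNAR) to -0.63 (without the HSC library labelled N5) for Mov10, and -0.235 to -0.031 for Pml without the same libraries. Bst2 encodes tetherin, which holds budding virus at the membrane, and Adar edits double-stranded RNA. Ifitm3, which blocks viral entry, stood at 465 and 580 against 396 and 496 CPM in HSC and at 233 and 205 against 147 and 148 CPM in MPP. Its neighbour Ifitm1 ran the other way, at 464 and 536 against 542 and 672 CPM in HSC and at 187 and 188 against 188 and 218 CPM in MPP. Members of the Ifitm, Oas, Gbp, Tgtp and H2 families resemble each other and may share reads to an unknown degree.

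**Figure D2:**
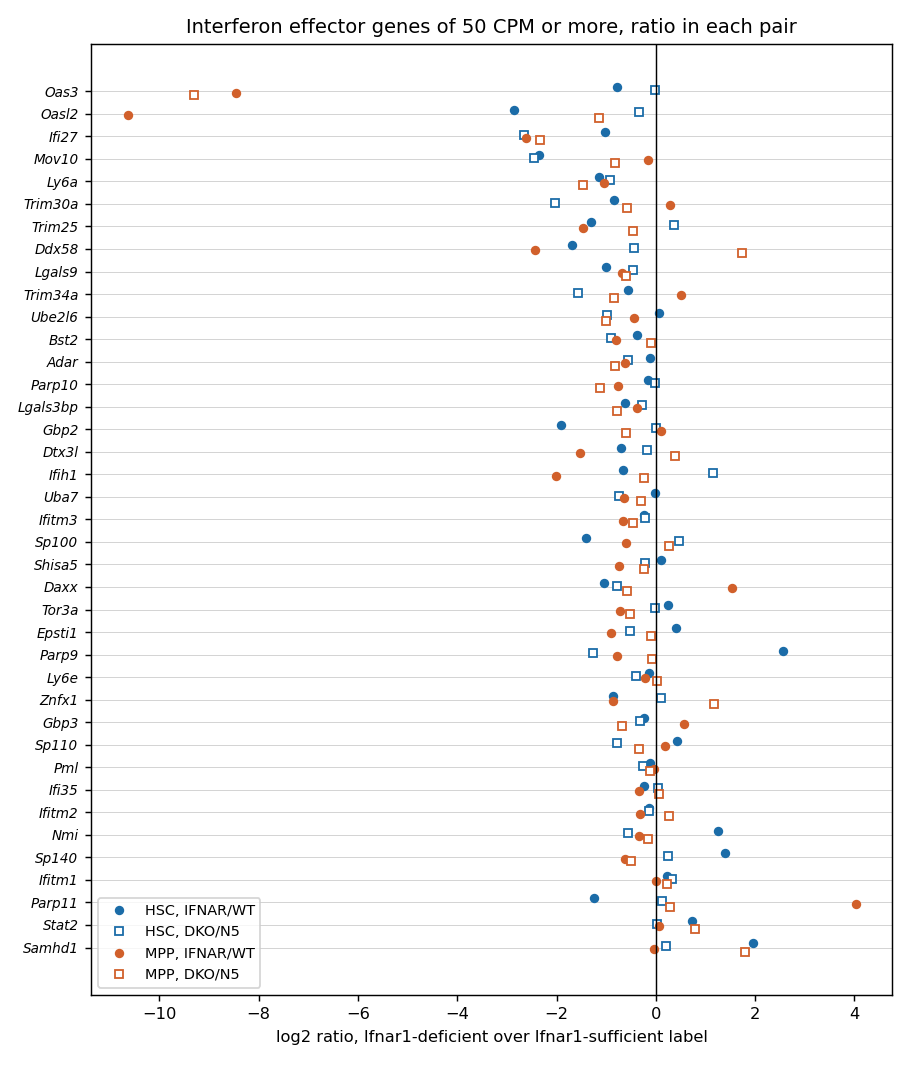
log2 ratio of effector genes with a mean of 50 CPM or more, deficient over sufficient label, in each of the 4 pairs (blue for HSC, orange for MPP, filled circles for IFNAR/WT and open squares for DKO/N5). Ifi27 and Ly6a are among the genes left of 0 in every pair, and Ifitm1 and Stat2 lie right of it.

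Low in abundance but wide in contrast were Rtp4, Oas1a, Oas2 and Isg15, which have a mean under 50 CPM and are named after their values were seen. Rtp4, a receptor transporter protein induced by interferon, stood at 74.0 and 57.6 against 3.81 and 0.591 CPM in HSC and at 63.8 and 81.4 against 0 and 5.46 CPM in MPP. Its log2 fold change was -4.84 (SE 1.64) in the reported fit. Of the edgeR fits, the bias-adjusted method alone called it (log2 fold change -4.88, adjusted p = 0.0364). Oas2 stood at 16.3 to 29.1 CPM in the 4 libraries labelled sufficient and at 0 to 1.10 CPM in those labelled deficient. Isg15, the ubiquitin-like modifier, stood at 2.35 to 6.56 CPM under the sufficient labels and had no count under the deficient ones. Oas1a stood at 59.5 to 108 CPM under the sufficient labels and at 6.71 to 31.5 CPM under the deficient ones.

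Interferon-inducible GTPases, which attack the vacuoles of intracellular parasites, also lay lower. Of 17 tested, 13 had a log2 fold change below 0, 6 were lower in all 4 pairs and 0 were higher, and the median was -0.48. The share lower in all 4 pairs was 35.3%, beside 6.33% of all genes, and 50.4% of all genes had a log2 fold change below 0. All 10 with a mean of 50 CPM or more had a negative log2 fold change. Iigp1 stood at 161 and 116 against 59.6 and 68.7 CPM in HSC and at 26.0 and 63.0 against 16.9 and 8.92 CPM in MPP (log2 fold change -1.44, SE 0.43). Igtp stood at 206 and 228 against 177 and 201 CPM in HSC and at 121 and 141 against 51.5 and 47.3 CPM in MPP, so its gap was wider in MPP. Its log2 fold change was -0.80 (SE 0.28). Tgtp2 and Gbp7 were lower in all 4 pairs too, with log2 fold changes of -0.48 and -0.46. DESeq2 called 3 of the 17 genes, all lower, beside 1.92% of all genes.

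Antigen presentation by MHC class I showed small shifts at high abundance. Of 24 genes tested, 18 had a log2 fold change below 0, 8 were lower and 1 higher in all 4 pairs, and the median was -0.21. The share lower in all 4 pairs was 33.3% (6.33% of all genes), and 75% had a log2 fold change below 0 (50.4% of all genes). H2-K1, a classical heavy chain, stood at 4405 and 4951 against 3955 and 4461 CPM in HSC and at 3357 and 3255 against 2352 and 2482 CPM in MPP (log2 fold change -0.30, SE 0.09). B2m, the shared light chain, stood at 2010.4 and 1977 against 1691 and 1842 CPM in HSC and at 1648 and 1547 against 1295 and 1166 CPM in MPP (log2 fold change -0.28, SE 0.09). H2-Q7 and H2-T22, non-classical heavy chains, had log2 fold changes of -0.56 (SE 0.14) and -0.89 (SE 0.28). H2-D1, the peptide transporter subunit Tap1 and the peptide editor Tapbpl were lower in all 4 pairs as well. Of the 6 genes with a positive log2 fold change, Psmb10, a catalytic subunit of the immunoproteasome, was the 1 higher in all 4 pairs: it stood at 117 and 153 against 200 and 198 CPM in HSC, and 115 and 101 against 124 and 154 CPM in MPP.

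Neighbouring lists of innate immunity were divided more evenly by count over all their tested genes. The sensor list is not separate from the effector list: Adar, Ddx58 and Ifih1 are among the genes on both. Of 18 nucleic acid sensors 11 had a log2 fold change below 0 and 2 were lower in all 4 pairs, Sting1 and Adar (11.1%, beside 6.33% of all genes). Of 10 genes of the Ifi200 and Schlafen families 5 had a log2 fold change below 0. With a mean of 50 CPM or more, 4 of 5 did (median -0.39), beside 2389 of all 4669 such genes. Mndal, a nuclear DNA sensor, stood at 112 and 99.4 against 79.2 and 68.2 CPM in HSC and at 176 and 147 against 148 and 60.8 CPM in MPP, while Slfn2 was higher in all 4 pairs with ratios from 0.12 to 1.46. Of 17 genes of the type II interferon arm 7 had a log2 fold change below 0, with a median of 0.04. Irf1, a transcription factor induced by both interferon types, stood at 142 to 264 CPM with overlapping sides. Ifngr1, a subunit of the type II receptor, stood at 108 to 114 CPM under the sufficient labels and at 120 and 184 CPM under the deficient ones in HSC, and at 250 and 307 against 231 and 279 CPM in MPP.

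**Figure D3:**
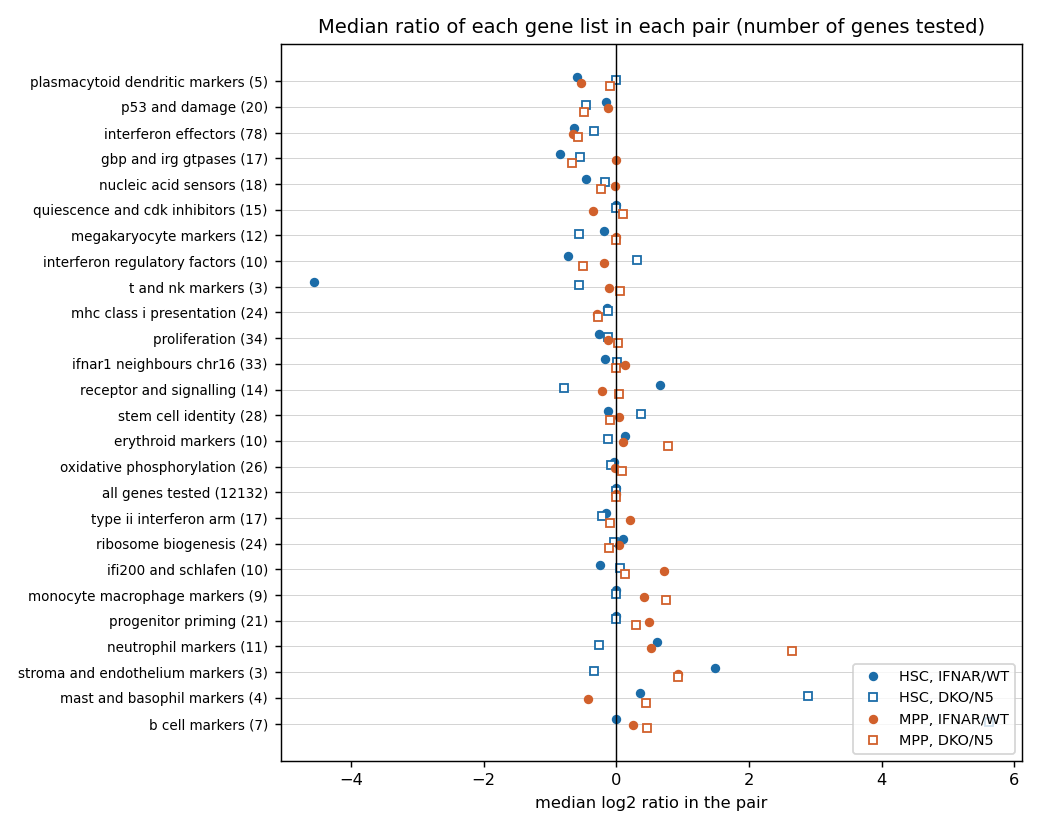
Median log2 ratio of each gene list in each of the 4 pairs, deficient over sufficient label, with the number of genes tested in brackets and lists ordered by their median edgeR log2 fold change. The effector list has medians from -0.66 to -0.34 and all genes tested lie at 0, while lists with few genes spread widely.

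The genes with the largest smallest ratio over the 4 pairs included interferon genes and others. The 15 lower genes of that ranking included Kdm3b, Csad, Focad, Urgcp, Ifi27, Ly6a, Smpd1, Gprasp1, Ssbp2, Irf9, Cbr1, Gabpb1, Akt1 and Spata13. The last gene inside the list, Spata13, had a smallest ratio of 0.67 in size and the next outside, Tmem254a, 0.66. Ssbp2, a single-stranded DNA-binding protein, had ratios from -1.23 to -0.81 and stood at 291, 267, 296 and 201 CPM under the sufficient labels (HSC WT and N5, then MPP) against 124, 125, 130 and 115 CPM under the deficient ones. Its log2 fold change was -1.08 (SE 0.15), and the sides did not overlap. Csad, an enzyme of taurine synthesis, stood at 162 and 88.6 against 70.9 and 25.6 CPM in HSC and at 107 and 54.0 against 36.9 and 15.6 CPM in MPP (log2 fold change -1.58, SE 0.24). Within each matched pair Csad was lower by a similar ratio, from -1.79 to -1.19. Urgcp, a promoter of cell growth, stood at 181 and 118 against 47.5 and 49.1 CPM in HSC and at 57.5 and 113 against 27.6 and 36.0 CPM in MPP, with no overlap. Smpd1, the lysosomal acid sphingomyelinase, also had no overlap, at 54.0 to 131 CPM under the sufficient labels and 10.2 to 34.7 CPM under the deficient ones.

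Gabpb1, a subunit of the GABP transcription factor, stood at 98.2 and 105 against 52.7 and 50.6 CPM in HSC and at 170 and 177 against 95.6 and 110 CPM in MPP. Akt1, the kinase downstream of growth factor receptors, had ratios from -0.84 to -0.67, yet its level in the HSC library labelled N5 (159 CPM) was well above the 37.7 CPM in that labelled WT. Kdm3b, a histone demethylase, and Focad, focadhesin, each held a library near 0: Kdm3b at 0.802 CPM in the HSC library labelled DKO and Focad at 0 CPM in the MPP library labelled IFNAR. Gprasp1, a sorting protein for receptors, stood at 132 and 192 against 71.4 and 58.7 CPM in HSC and at 71.3 and 159 against 31.0 and 12.8 CPM in MPP. Spata13, an exchange factor for small GTPases, stood at 189 and 174 against 61.4 and 32.0 CPM in HSC and at 51.5 and 59.3 against 32.3 and 26.4 CPM in MPP.

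Cbr1, a carbonyl reductase, lies on chromosome 16 near Ifnar1, where a knockout allele can carry flanking DNA from another strain. It stood at 117 and 102 against 65.4 and 61.6 CPM in HSC and at 100 and 73.5 against 46.4 and 33.2 CPM in MPP, with no overlap (log2 fold change -0.95, SE 0.22). Of the 33 genes tested in that region, Ifnar1 itself included, 1 was lower in all 4 pairs (Cbr1) and 1 higher, and the median log2 fold change was -0.10. The share lower in all 4 pairs was 3.03%, beside 6.33% of all genes. Of the 14 with a mean of 50 CPM or more, 11 had a log2 fold change below 0, beside 2389 of all 4669 such genes. Their median was -0.23, and 1 was lower in all 4 pairs (7.14%, beside 7.3% of all such genes). The summed level of the region's 41 genes was lower in 4 of 4 pairs. The part of such flanking DNA in the Cbr1 values was not tested.

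The 15 higher genes by the same rule were Acsl1, Clasp1, Exosc9, Alas1, Abi1, Selenoo, Mtx2, Brf1, Nop2, Faf2, C1qtnf12, Pld3, Gtf2h1, Vldlr and Ercc4, with smallest ratios from 1.02 for Acsl1 to 0.53 for Ercc4. Ctsg, just outside, also rounded to 0.53. Nop2, which modifies ribosomal RNA, stood at 80.2 and 89.0 against 182 and 232 CPM in HSC and at 168 and 123 against 250 and 190 CPM in MPP (log2 fold change 0.94, SE 0.23). Alas1, the first enzyme of haem synthesis, stood at 42.2 and 18.2 against 86.5 and 61.8 CPM in HSC and at 209 and 126 against 335 and 208 CPM in MPP (log2 fold change 1.04, SE 0.22). Nop2 showed no overlap between the sides, while Alas1 was apart within HSC only.

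Acsl1, which activates long-chain fatty acids, stood at 45.8 and 4.31 against 97.4 and 50.3 CPM in HSC and at 72.2 and 37.3 against 146 and 101 CPM in MPP. Faf2, of the endoplasmic reticulum degradation pathway, stood at 42.1 to 58.1 CPM under the sufficient labels and at 80.5 to 107 CPM under the deficient ones. Brf1, a subunit of the RNA polymerase III factor TFIIIB, stood at 27.3 to 39.8 CPM against 49.8 to 94.8 CPM. Mtx2, of the mitochondrial outer membrane, stood at 30.6 to 56.3 CPM against 65.8 to 93.4 CPM. Faf2, Brf1, Mtx2, Nop2 and Ercc4, a subunit of a DNA repair endonuclease, were the 5 of these 15 whose sides did not overlap. Of all 4669 genes with a mean of 50 CPM or more, 37 (0.792%) were apart in that direction. The 15 were chosen by their ratios in the same libraries, so their larger share partly follows from the choice. Vldlr and Selenoo held a library near 0 under a sufficient label, 0 CPM for Vldlr in the HSC library labelled N5 and 0.261 CPM for Selenoo in that labelled WT, and their standard errors were 1.61 and 1.27.

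**Figure D4:**
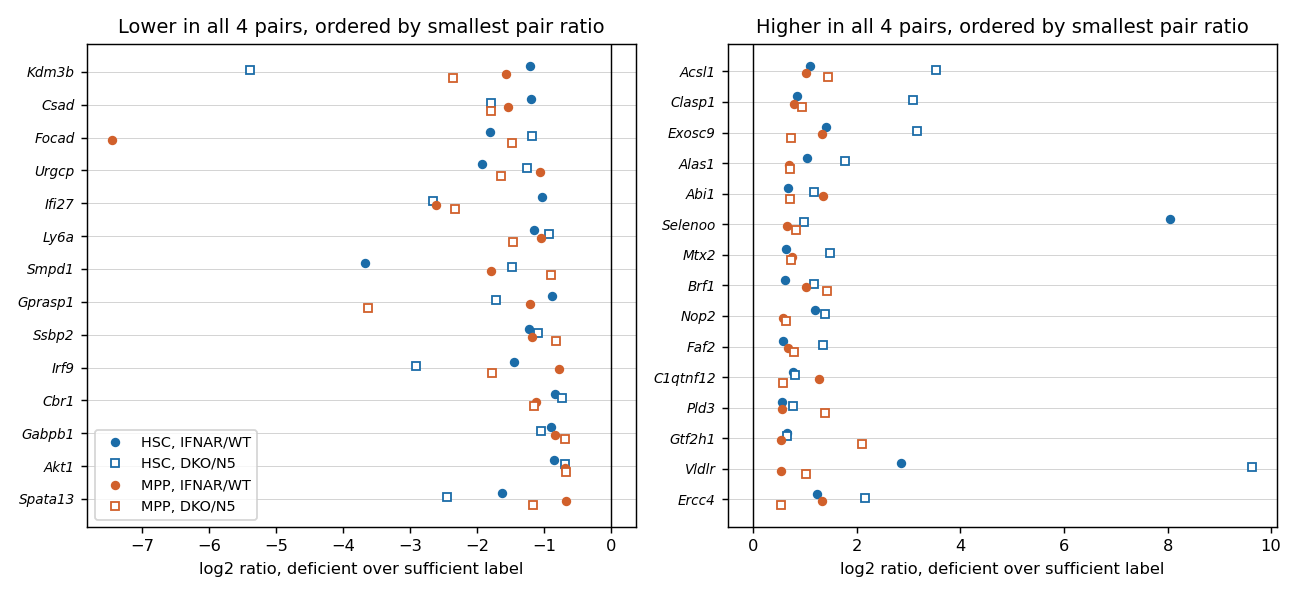
log2 ratio in each of the 4 pairs (deficient over sufficient label) for lower and higher genes with the largest smallest ratio, among genes with a mean of 50 CPM or more. Ssbp2, Gabpb1 and Akt1 have nearly equal ratios in the 4 pairs, while Kdm3b, Focad, Selenoo and Vldlr each have a ratio stretched by a library near 0.

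The response element letters were found in 302 of 8932 tested genes with a RefSeq promoter (3.38%), and in 974 of all 32815 promoter windows of that length (2.97%). Among genes with a mean of 50 CPM or more, 14 of 279 that were lower in all 4 pairs held them (5.02%), and 7 of 233 that were higher (3.004%). Outside the interferon lists the lower genes held them in 5 of 256 (1.95%). At any abundance, the tested effectors held them in 20 of 61 promoters (32.8%), the GTPases in 9 of 10 (90%) and the MHC class I genes in 3 of 20 (15%). Of the effectors lower in all 4 pairs, 10 of 20 held them at any abundance (50%), and 3 of 10 at a mean of 50 CPM or more (30%). Of the 49 promoters of lower genes with a mean of 50 CPM or more whose sides did not overlap, 0 held them. Gprasp1, whose promoter is printed above, was the only gene with the letters among the 11 of the 15 lower named genes that had a promoter entry.

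Cell type and Nfat5 label did not alter the comparison detectably in the edgeR fits. The interaction of the Ifnar1 label with cell type called 0 genes (smallest adjusted p 0.451, 585 genes at an unadjusted p under 0.05), and that with the Nfat5 label called 0 (smallest adjusted p 1, 404 genes), each with 3 residual degrees of freedom. DESeq2 called 607 and 393. For Irf9 the difference between HSC and MPP was -0.86 (SE 0.66) on the log2 scale, for Ifi27 0.61 (SE 0.64) and for Ly6a 0.23 (SE 0.47), each with an edgeR adjusted p near 1. At this precision a difference between the cell types was not detectable, which does not show that they respond alike.

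Markers of other blood cells differed between the sides too. The summed level of 11 B cell markers was 34.7 and 86.2 CPM in the HSC libraries labelled sufficient and 77.7 and 125 CPM in those labelled deficient, and 927 and 1048 against 1625 and 1945 CPM in MPP. Most of the MPP sums was Ighm, at 852 and 947 against 1538 and 1839 CPM. Pax5 was listed at 0 in all 4 HSC libraries and in 2 of the 4 MPP libraries. Mast and basophil markers (9 genes, Tpsb2 at 0 throughout) summed to 236 to 366 CPM under the sufficient labels and 292 to 535 CPM under the deficient ones. In HSC these sums were 318 and 366 against 535 and 519 CPM. Most of them was Gata2, also on the stem cell identity list, at 318 and 326 against 520 and 509 CPM. In MPP Gata2 ran the other way, at 173 and 157 against 107 and 94.3 CPM. Stroma and endothelium markers (10 genes, with Cdh5, Lepr, Col1a1 and Pdgfra at 0 throughout) summed to 46.7 to 143 against 106 to 257 CPM. All 3 sums were higher in 4 of 4 pairs. Without Gata2 the mast and basophil sum would be lower in the HSC pair DKO/N5. Neutrophil markers (12 genes) summed to 610 and 704 against 610 and 660 CPM in HSC. In MPP they summed to 1396 and 558 against 1989 and 1962 CPM, and the sum was lower in 1 of 4 pairs. T and NK cell markers (13 genes, 6 at 0 throughout, Cd3e among them) summed to 81.5 to 419 against 34.0 to 417 CPM, lower in 4 of 4 pairs. In the MPP pair DKO/N5 the T and NK sums hardly differed (419 against 417 CPM). Much of the T and NK sums was Nkg7, also on the progenitor priming list. It stood at 40.9 and 66.2 against 34.0 and 44.7 CPM in HSC and at 315 and 356 against 291 and 371 CPM in MPP. Megakaryocyte markers (15 genes) summed to 302.5 to 2155 against 189.9 to 1664 CPM, lower in 3 of 4 pairs. All 12 of them that were tested had a log2 fold change below 0 (median -0.33), and 0 were lower in all 4 pairs. Erythroid markers (12 genes) summed lower in 2 of 4 pairs, monocyte and macrophage markers (13 genes) in 1 and plasmacytoid dendritic cell markers (10 genes) in 3. The part of these markers in the results above was not tested.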

How the data were processed

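The authors deposited whole-number counts of 53700 genes in 8 libraries. Per the submitters' processing notes, STAR 2.7.8a, RSEM 1.3.0 and GRCm39 were used. For the annotation release and the rounding of RSEM estimates to whole counts, no statement was found: not given in the sources used here. Smart-Seq2 marks neither strand nor molecules, so counts were treated as unstranded, and overlapping genes and paralogs may share reads. Because 101 symbols occur more than once, genes were tracked by identifier.

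edgeR 4.0.16 under R 4.3.3 fitted the counts (glmQLFit, then glmQLFTest) with terms for cell type, Nfat5 label and Ifnar1 label. Library sizes were scaled by TMM, and filterByExpr kept 12132 genes holding 99.5% of counts. p-values were adjusted by Benjamini-Hochberg. DESeq2 1.42.0 and limma 3.58.1 (voom) were among the alternatives. In pair ratios, 2 prior counts were added before taking log2. Each set of 15 named genes has a mean of at least 50 CPM, 1 direction in 4 pairs and the largest smallest ratio, leaving out predicted genes, pseudogenes, receptor segments of lymphocytes, and Y-linked or Xist transcripts. Interferon list members of 50 CPM or more and the most abundant members of other lists could also be named. Rtp4, Oas1a, Oas2, Isg15, Usp18 and some members of other lists (among them Ccng1, Mdm2, Mcm6 and Prtn3) were chosen after their values were seen. A few items that these rules cover are not reported here. Members and lists were chosen with earlier results of these data known. RefSeq promoters (GRCm38.p6) were matched by symbol, and no coordinates were carried between builds. Intervals are Poisson and cover counting error only.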

Additional observations from a re-analysis of the deposited data

Results flagged for a closer look

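For 2 named genes the pairs of HSC libraries and the pairs of MPP libraries moved in opposite directions. Ifnar1 had log2 ratios of -0.11 and -1.84 in HSC and 0.24 and 0.51 in MPP, and the difference between HSC and MPP in the edgeR interaction was -1.08 on the log2 scale (unadjusted p = 0.394, adjusted p = 1). Ifngr1 had ratios of 0.08 and 0.77 in HSC and -0.13 and -0.12 in MPP, with a difference of 0.59 in the same edgeR interaction (unadjusted p = 0.202, adjusted p = 1). Neither difference passed the test.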

How the results depend on the processing

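The median log2 fold change of the interferon effectors stayed between -0.56 and -0.41 under every alternative run, leaving out each library included, and the percent of effectors with a negative value between 69.2 and 84.6, a measure whose alternatives were chosen after seeing the data. No fit without a library called a gene (0 to 0), and those fits held 334 to 414 genes at an unadjusted p under 0.05. DESeq2 called 233 genes, limma-voom 1 and edgeR's bias-adjusted method 1, and they held 1445, 602 and 658 genes at an unadjusted p under 0.05. The fits of WT and IFNAR alone and of N5 and DKO alone held 245 and 242. For the interactions DESeq2 called 607 genes with cell type and 393 with the Nfat5 label. Lower and higher genes in all 4 pairs numbered 520 and 492 at a mean of 20 CPM or more, 179 and 160 at 100 CPM or more, and 20 and 8 at 1.5-fold or more in each pair. None of the 30 genes named by their pair ratios changed sign. They were chosen for 1 direction in all 4 pairs of the same libraries, so this largely follows from the choice and is no support for them. Some other genes changed sign. Irf8, at 0.50 in the reported fit, gave -0.99 in limma-voom, -0.97 in HSC alone, -0.060 in MPP alone, -0.42 in N5 and DKO alone, -0.011 with HSC and MPP summed per genotype and -1.15 to 1.65 when each library was left out. HSC alone gave -0.045 for Jak1, -3.86 for Mpo and -3.82 for Elane, while MPP alone gave 0.38 for Ifnar1, -0.044 for Tyk2, -0.12 for Ifngr1 and 0.024 for Kit. WT and IFNAR alone gave 0.059 for Ifnar1, -0.15 for Irf1, -0.033 for Ifngr1 and 0.049 for Kit. N5 and DKO alone gave 0.62 for Nfat5, -0.67 for Ifnar2, -0.39 for Tyk2, 0.082 for Trp53, -3.21 for Mpo and -2.24 for Elane. limma-voom gave 0.039 for Nfat5, and leaving out the Nfat5 term gave -0.078 for Ifnar2. Leaving out each library gave ranges of -0.71 to 0.35 for Ifnar1, -0.34 to 0.85 for Ifnar2, -0.10 to 0.44 for Tyk2, -0.11 to 0.027 for Kit, -0.061 to 0.20 for Jak1, -0.71 to 1.06 for Mpo, -0.33 to 1.38 for Elane, -0.075 to 0.31 for Ifngr1 and -0.030 to 0.37 for Irf1. The cause of these changes was not tested. The labels carry no replicate numbers, so the 4 pairs were taken as blocks in an edgeR fit chosen after seeing the data, with 3 residual degrees of freedom. It called 0 genes (smallest adjusted p 1), held 346 genes at an unadjusted p under 0.05 (222 lower and 124 higher) and gave an effector median of -0.51. Among the named genes it reversed Mpo (-0.11) and Irf8 (-0.12).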

Other observations

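Genes that mark primed progenitors did not share a direction. Of 21 tested, 7 had a log2 fold change below 0 (33.3%, beside 50.4% of all genes). In all 4 pairs 1 was lower (Cd34, 6.33% of all genes were) and 2 were higher (Prtn3 and Ctsg, 6.11% of all genes were). Cd34, a surface sialomucin of progenitors, stood at 314 and 247 against 194 and 221 CPM in HSC and at 1681 and 1530 against 1419 and 1241 CPM in MPP. Irf8, a factor of the monocyte and dendritic lineages, stood at 86.9 and 143 against 166 and 67.9 CPM in MPP, higher in the first pair and lower in the second. Mpo, Elane, Prtn3 and Ctsg, granule proteins of the neutrophil lineage, are described after their values were seen. Mpo stood at 6182 and 3743 CPM in the MPP libraries labelled WT and N5 and at 8757 and 8026 CPM in those labelled IFNAR and DKO. Prtn3 stood at 444 and 262 against 620 and 504 CPM in MPP and at 126 and 142 against 224 and 177 CPM in HSC, higher in all 4 pairs (log2 fold change 0.62). The HSC library labelled DKO had no count for Mpo or Elane, and the HSC values of Mpo elsewhere ran from 47.0 to 303 CPM. No priming gene passed the edgeR test, and limma-voom called Mpo (adjusted p = 0.00240).

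The 24 genes of the p53 response summed to 1031 to 1212 CPM under the sufficient labels and to 889.8 to 969.5 CPM under the deficient ones, with no overlap. Trp53 made up 34.6% to 45.5% of these sums, and without it they were 660.2 to 777.9 against 529.9 to 592.7 CPM. Of 20 tested, 14 had a log2 fold change below 0 (70%, beside 50.4% of all genes), 5 were lower in all 4 pairs (25%, beside 6.33%) and 1, Mdm2, was higher. Ccng1, a p53 target, stood at 95.7 and 133 against 82.4 and 64.0 CPM in HSC and at 105 and 106 against 64.2 and 35.0 CPM in MPP, with no overlap. Trp53 itself stood at 322 to 552 CPM with overlapping sides. Among 34 proliferation genes 7 were lower in all 4 pairs (20.6%, beside 6.33% of all genes) and 3 were higher (6.11% of all genes were). Mcm6, a subunit of the replicative helicase, stood at 780 and 779 against 694 and 581 CPM in HSC and at 1350.4 and 1482 against 1107 and 883 CPM in MPP. Of 28 stem cell identity genes 1 was lower in all 4 pairs (Ly6a, 3.57% of the list) and 0 were higher.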
